A study of Mus musculus with 2 samples.

Results

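Fibroblast growth factors (FGFs) act on lung epithelium through receptor tyrosine kinases that switch on the RAS-ERK cascade, and the cascade in turn induces its own inhibitors. The genes described here are 10 members of that circuit: the receptors Fgfr2 and Fgfr3, the feedback inhibitors Spry1, Spry2, Spry4, Spred1, Spred2 and Dusp6, and the transcription factors Etv4 and Etv5. They were chosen by name among the 20660 genes that the array probes could be matched to, and all 10 are represented, by 13 probes in all. Of these genes, 9 gave a signal well above background on 1 or both arrays. The exception was Spry4.

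The study compared lung epithelial cells of Mob1DKO mice with those of wild-type (WT) mice, both labelled C57BL/6 and 10 weeks old, on 1-colour Agilent arrays with 1 array in each group. Mob1DKO is not spelled out in the labels and is taken here, from knowledge of this mouse line, to mean loss of Mob1a and Mob1b, whose products switch on LATS kinases in Hippo signalling. The way the deletion was induced, the cells it reached and the number of animals behind each RNA are not given in the sources used here. The comparison asks how loss of this Hippo component changes gene expression in the epithelium. A level is the log2 of the processed signal minus the 75th percentile of its array, and a difference is Mob1DKO minus WT. With a single array per group there is no test, and no p-value is given. The spread between mice is unknown, so precision is limited by having so few arrays. Well above background is the flag the scanner software gives a spot. The technical SD is that of differences between single spots of probes printed many times on each array, taken at a similar level. It and the scanner software's own error cover the array measurement only.

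As background, FGF10 and FGF7 made by lung mesenchyme bind FGFR2 on epithelial cells during branching and in alveolar repair. Sprouty proteins dampen receptor signalling towards RAS, and the related SPRED proteins hold back the ERK cascade. DUSP6 is a phosphatase of ERK in the cytoplasm. ETV4 and ETV5 are ETS-family transcription factors that rise when FGF signalling is on, and ETV5 is known for maintaining alveolar type 2 cells.

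The targeted genes were read first. For Mob1b the levels were −2.98 for Mob1DKO and −0.98 for WT, a 4.0-fold lower signal in the Mob1DKO preparation, and a second probe was 6.48-fold lower. The single Mob1a probe differed by 0.07, with a technical SD of 0.78. Whether these probes lie in the deleted parts is not stated, so the Mob1a value checks nothing. The Y-linked Ddx3y was at least about 22.7-fold higher for Mob1DKO and Xist was 4.90-fold lower. Sex and genotype therefore cannot be told apart for any member. The 8 shared epithelial markers were all measured on both arrays, with a median difference of −0.00. In bulk preparations such as these, fewer cells of a type and less RNA per cell cannot be told apart.

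The clearest difference among the members was that of the feedback inhibitor Spry2, which was 3.51-fold higher on the Mob1DKO array. The other 8 measured members stayed under 2-fold, with differences from −0.17 (Spred2) to 0.32 (Spry1). No member was at least 2-fold lower. A gene was called when its difference reached 2-fold and the brighter array measured its probe well above background. By that rule 1 of 9 measured members was higher, where 3.79% of 15099 measured genes were higher and 2.91% were lower. The median difference was 0.11 over the members and 0.02 over all measured genes. Of the 9 members 7 had a difference above 0, as did 53.3% of all measured genes.

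The upstream sequence of Spry2 is shown because this gene was the called member, and that of Spry1 because it is a Sprouty paralog with a smaller difference. Each line gives the 250 bases before the annotated start, 5′ to 3′ on the strand of the gene, from RefSeq on build GRCm38.p6. The Spry2 window is chr14:105896820-105897069 on the minus strand, and the Spry1 window is chr3:37639697-37639946 on the plus strand. Capitals mark matches to CATTCC, the core recognised by the TEAD partners of YAP and TAZ.
Spry2: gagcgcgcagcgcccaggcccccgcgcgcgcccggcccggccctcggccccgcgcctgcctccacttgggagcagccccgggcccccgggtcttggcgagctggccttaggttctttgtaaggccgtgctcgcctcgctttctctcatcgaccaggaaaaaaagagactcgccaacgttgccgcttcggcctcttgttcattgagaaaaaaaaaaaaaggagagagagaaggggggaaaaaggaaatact
Spry1: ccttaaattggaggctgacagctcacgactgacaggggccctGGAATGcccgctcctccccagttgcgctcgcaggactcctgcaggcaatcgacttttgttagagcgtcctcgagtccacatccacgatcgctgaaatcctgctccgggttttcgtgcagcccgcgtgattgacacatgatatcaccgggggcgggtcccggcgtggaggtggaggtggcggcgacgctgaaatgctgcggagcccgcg

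Both windows had a GC content of 62.4%. The Spry1 window held 1 match to CATTCC, as its reverse complement GGAATG, beginning 208 bases before the start, and the Spry2 window held none. Windows of 8 member genes were used, 10 windows in all since Fgfr3 and Etv5 have several annotated starts. Member windows on chromosome 18, which holds Spry4, were left out, and none was found for Etv4. Of these 10 windows, 1 held CATTCC on either strand, where 12.6% of 32851 windows of the same length did. None held CCGGAA, an ETS core found in 12.0% of all windows on either strand, or TGANTCA, the AP-1 site found in 6.75%. These matches are descriptions of letters and say nothing about binding in these cells.

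**Figure D1:**
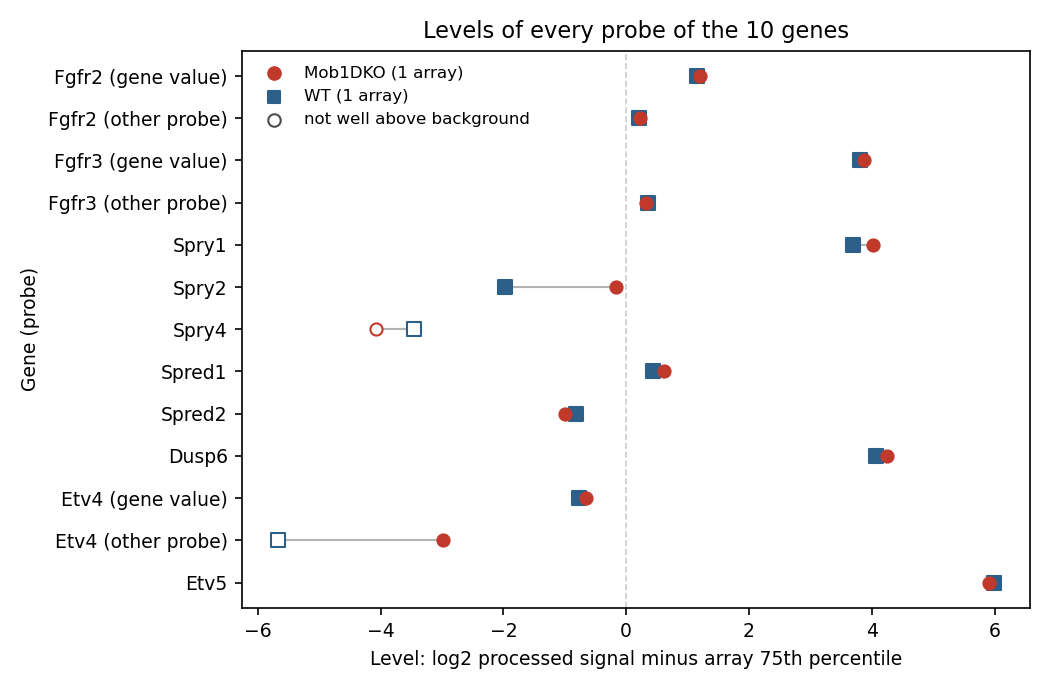
Each line is a probe of 1 of the 10 genes, with its level on the Mob1DKO array (circle) and on the WT array (square) in log2 units relative to the 75th percentile of the array. Open symbols were not well above background. The pair of symbols is far apart for Spry2 (−0.17 and −1.98) and for a faint Etv4 probe, and the pairs of the other probes lie close together or are open on both arrays.

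Of the receptors, Fgfr2, the epithelial receptor for FGF7 and FGF10, was nearly level between the arrays. Its brighter probe gave a processed signal of 674 for Mob1DKO and 344 for WT. After scaling, the levels were 1.21 and 1.15, a difference of 0.06 with a technical SD of 0.10. The second Fgfr2 probe was printed at 10 spots on each array and so gave the best-measured value among the members. Over these spots the level ran from 0.12 through a median of 0.24 to 0.32 on the Mob1DKO array. On the WT array it ran from 0.07 through a median of 0.20 to 0.31. The spot values of the arrays overlapped almost entirely. The mean difference over the 10 positions was 0.03 ± 0.07 (SD, n = 10 spots), with 6 of 10 positions above 0. Spots are repeats of 1 hybridisation and not of animals. Both probes carry the same transcript accession, and the files do not say which of the alternatively spliced FGFR2 forms each would detect.

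**Figure D2:**
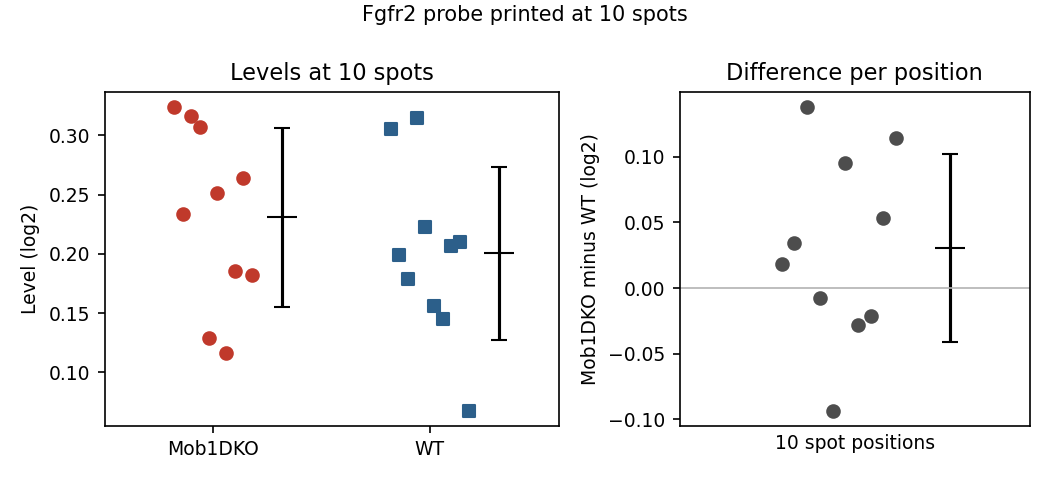
The left panel shows the level of the 10-spot Fgfr2 probe at each spot of the Mob1DKO and WT arrays, in log2 units relative to the 75th percentile, and the right panel shows the difference at each array position. Horizontal bars are means and whiskers are 1 SD over 10 spots. The spots of both arrays share the same range, and the differences lie between −0.09 and 0.14.

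Fgfr3, a receptor of the same family, showed the same picture. Its brighter probe had signals of 4282 for Mob1DKO and 2173 for WT, which became levels of 3.88 and 3.81. The difference was 0.07, with a technical SD of 0.06. A second, dimmer Fgfr3 probe gave 0.32 and 0.36, a difference of −0.04 in the other direction with a technical SD of 0.10. The sign of the Fgfr3 difference thus depended on the probe, and neither probe departed from 0 by more than 2 technical SDs.

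Among the Sproutys, Spry2 stood apart. Its single probe gave a processed signal of 259 ± 26.2 for Mob1DKO and 39.3 ± 4.97 for WT, where the errors are those of the scanner software for 1 spot. The levels were −0.17 and −1.98, a difference of 1.81 with a technical SD of 0.24. That SD was taken at the mean level of both arrays. The WT level lies near −2, below which the technical SD was 0.78. Both spots were well above background and neither carried an outlier flag. Before any correction the median pixel signal of the spot was 331 for Mob1DKO and 108 for WT, against a local background of 65.0 on both. The WT spot was thus faint, and the Mob1DKO spot was clearly brighter before scaling and after it.

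Of the 13866 genes that both arrays measured well above background, 1.25% were at least 2-fold higher for Mob1DKO. A difference as large as that of Spry2 or larger was found for 22 of them, or 0.159%, Spry2 included. A model-based background correction (normexp) that adds an offset of 50 to every spot lowered the Spry2 difference to 0.96, just under 2-fold. The same correction without the offset, tried after the data were seen, gave 1.51.

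By the brightest probe of each gene, Spry1 had the next largest difference. The approximate bound of the second Etv4 probe, 0.48, is larger but lies under the technical SD of that probe, 0.78. The Spry1 probe gave 4723 ± 472 for Mob1DKO and 2007 ± 201 for WT, at levels of 4.02 and 3.70. The difference of 0.32, or 1.25-fold, was larger than the technical SD of 0.06 and the scanner software's error of 0.20, and far below 2-fold. Of 1025 genes within 0.5 of the mean level of Spry1, 91.6% had a lower difference. For Spry2 the share was 99.3% of 1746 genes. Spry4 could not be compared. Its signal was 17.4 ± 3.92 for Mob1DKO and 14.2 ± 3.23 for WT, not well above background on either. The 3 Sprouty genes therefore gave a called increase, a small difference and no measurement.

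The SPRED genes, which encode membrane-associated inhibitors of the ERK cascade, went in opposite directions by small amounts. Spred1 had signals of 447 and 210 on the Mob1DKO and WT arrays, at levels of 0.62 and 0.44, a difference of 0.18 with a technical SD of 0.10. Spred2 had signals of 147 and 87.5, at levels of −0.99 and −0.82, a difference of −0.17 with a technical SD of 0.24. The Spred1 difference also lay within the scanner software's error of 0.21, so neither gene was set apart from 0 by both error estimates.

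Dusp6, the ERK phosphatase, was one of the brightly measured members, with signals of 5521 for Mob1DKO and 2613 for WT. Its levels were 4.24 and 4.08. The difference of 0.17 exceeded the technical SD of 0.06 but not the scanner software's error of 0.20. Of 850 genes within 0.5 of its mean level, 80.1% had a lower difference.

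The ETV transcription factors, which are commonly used as readouts of FGF signalling, are given probe by probe. Etv5 had signals of 17409 for Mob1DKO and 9837 for WT, at levels of 5.90 and 5.99, a difference of −0.09 with a technical SD of 0.06. The brighter Etv4 probe had signals of 185 and 91.0, at levels of −0.66 and −0.77, a difference of 0.11 with a technical SD of 0.24. On these probes both differences were smaller than 2 technical SDs.

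A second Etv4 probe for the same transcript accession gave a different value. Its signal was 37.0 ± 5.49 on the Mob1DKO array, well above background, and 3.05 ± 3.06 on the WT array, not well above background. Only a bound can be given, which sets the Mob1DKO level of −2.98 against −3.45, the lowest level among probes well above background on the WT array. That lowest level is not a strict limit, since a probe above it can lack the flag. By this approximate bound the probe was at least 1.39-fold higher on the Mob1DKO array. The bound is 0.48 in log2, under the probe's technical SD of 0.78 and the scanner software's error of 1.46. Together with the Spry2 probe, this Etv4 probe passed the 2-fold rule on its measured signals. The same held for 5.81% of 33502 probes well above background on at least 1 array. Both Etv4 probes had measured differences above 0, but the brighter lay within its technical SD and the other rests on that approximate bound. The direction and the size of the Etv4 difference are therefore uncertain.

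**Figure D3:**
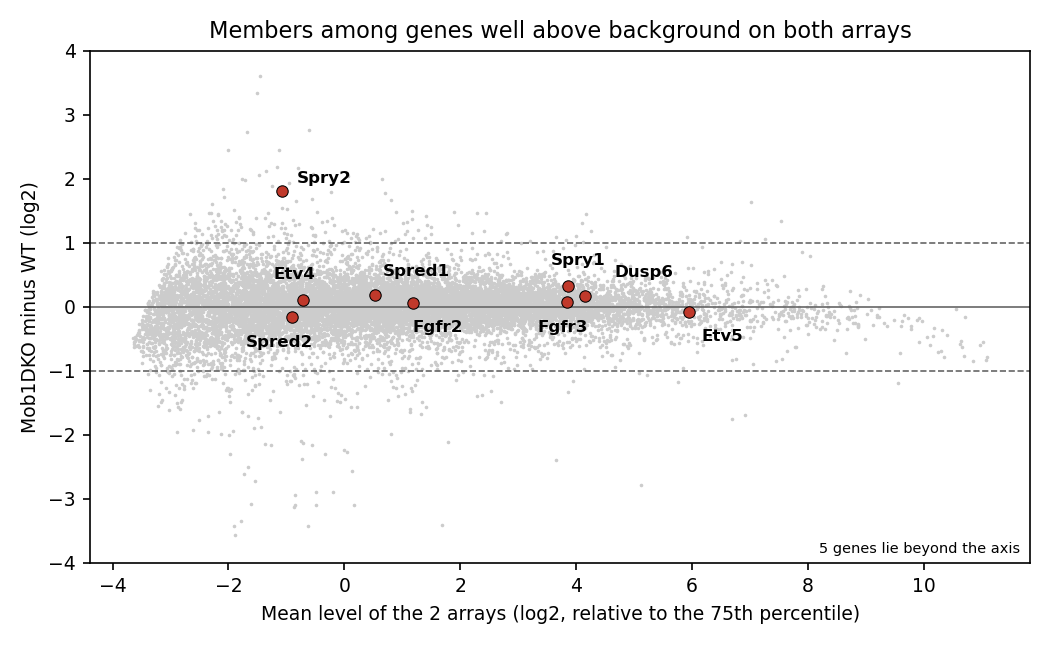
Each grey point is 1 of the 13866 genes that both arrays measured well above background, placed by its mean level (log2, relative to the 75th percentile) and its difference (Mob1DKO minus WT, log2), and 5 genes lie beyond the axis. Named points are the 9 measured members and dashed lines mark 2-fold. Spry2 lies at 1.81 above the 2-fold line, and the other members lie between the dashed lines.

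The rest of the pathway was examined from lists of genes grouped by role. Leaving out the members, 88 genes were measured, of which 2 were called higher and 2 lower on their measured signals, with a median of 0.05. Of the 2 called higher, Fgf22 was too faint for a fold to be given. The shares were 2.27% each, where 3.79% and 2.91% of all genes were called by the same rule. None of 6 measured other receptors and co-receptors was called, and their median was 0.20. Fgfr1 gave levels of 3.68 for Mob1DKO and 3.33 for WT, a difference of 0.35, but its other probes differed by 0.19 and −0.75. Fgfrl1, a receptor relative that lacks the kinase domain, differed by −0.07.

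Of 24 listed FGF family genes and carriers, 13 were measured, with a median of 0.11, and 2 were called on their measured signals. Of the 13, 8 had a difference above 0. The list includes Fgf11, Fgf13 and Fgf14, which are not secreted ligands and differed by −0.33, −0.98 and −0.93. Fgf8 was 2.56-fold higher, at levels of −0.20 for Mob1DKO and −1.56 for WT. Neither array measured its other 2 probes well above background, so that value rests on 1 of 3 probes. Fgf22 was detected above background for Mob1DKO alone, where its level of −3.88 lies under the lowest level measured as well above background on the WT array, so no fold is given. The brightest probes of the list, for Fgf23 and Fgf1, differed by −0.00 and −0.23. Neither array measured a second Fgf23 probe well above background, so the bright signal of the first is not borne out by the other. Fgf14 was faint, and its probes disagreed. The probe that stands for the gene differed by −0.93, with a technical SD of 0.78. Another was well above background for WT but not for Mob1DKO, and lower for Mob1DKO by at least 5.90-fold on the same approximate bound. That probe and Ndst1 below were singled out after their values were seen.

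Some ligands known in the lung are named here for that role, outside the naming rule. Fgf7 gave levels of −1.55 and −1.62 on the Mob1DKO and WT arrays, a difference of 0.07. Fgf10, read at 10 spots, was well above background for Mob1DKO but not for WT. By the same approximate bound Fgf10 was at least 1.11-fold higher for Mob1DKO. That bound, 0.15 in log2, lies under its technical SD of 0.25. Fgf18, at levels of 2.54 and 1.79 on its brighter probe, differed by 0.75, and by 0.82 on its other probe. Fgf9, at levels of −0.33 and −0.84, differed by 0.51.

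Downstream of the receptors, none of 22 measured genes of the RAS-ERK cascade was called. Their median was −0.03, and the highest difference was 0.63, that of the adaptor Frs2. The phosphatase Ptpn11 differed by −0.08. In the list of further feedback genes, none of 10 was called, and the median was 0.09. Errfi1, an inhibitor of EGF receptors, differed by 0.17, and Dusp1, a nuclear MAP kinase phosphatase, by −0.35. Neither array measured Spry3 or Spred3 well above background.

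Of 19 further genes that ERK signalling can induce or act through, 1 was called. Elk4, an ETS factor that works with SRF, was 2.16-fold lower, at levels of 0.36 for Mob1DKO and 1.47 for WT. Its other probes differed by −0.35 and −0.45 and did not reach 2-fold. The brightest probes of this list, for Elk1 and Phlda1, differed by −0.63 and 0.33. Before scaling, the Elk1 probe gave signals of 378810 for Mob1DKO and 312030 for WT. Whether such bright signals were compressed was not tested. For Elk1, neither array measured the second probe well above background. Among 18 measured heparan sulfate genes, which build or edit the sugar chains that FGFs need for receptor binding, the median was −0.04. The sulfotransferase Hs3st3b1 was called from a faint signal, 2.29-fold lower on its measured signals. Its difference was −1.19, with a technical SD of 0.78. Its Mob1DKO signal was not well above background, so the size is uncertain. The syndecan Sdc1 and glypican Gpc3 differed by 0.01 and −0.28. Probes disagreed for Ndst1, a heparan sulfate sulfotransferase: its brightest differed by 0.09 and another by 0.20, whereas the third was 4.68-fold lower, well above background on both arrays.

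**Figure D4:**
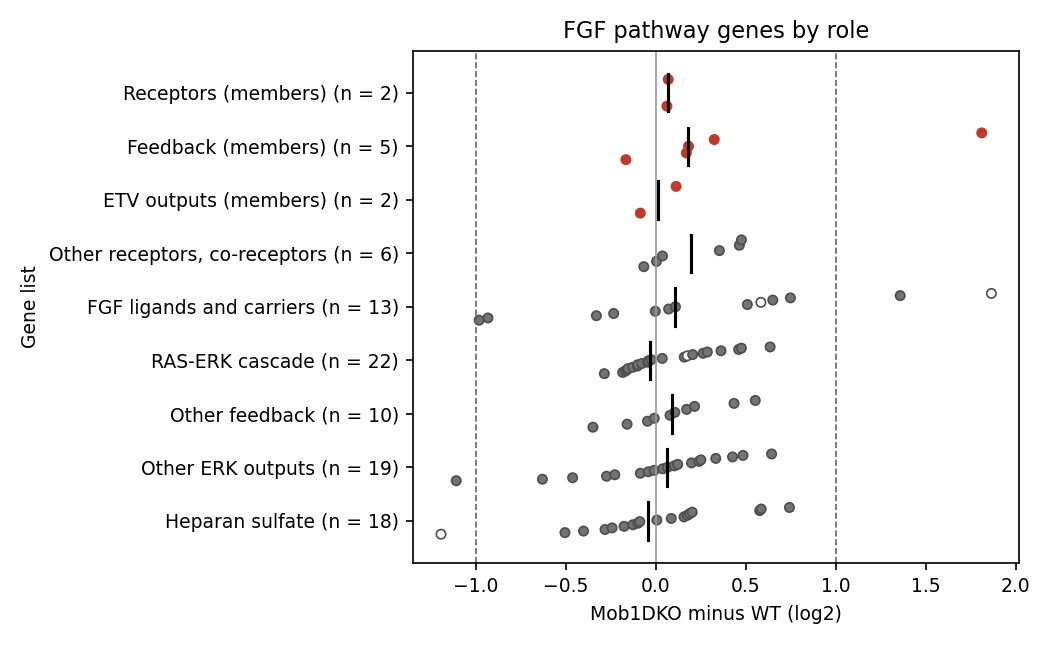
Each point is a measured gene placed by its difference (Mob1DKO minus WT, log2) in the list for its role, with members in red and other pathway genes in grey. Black bars are list medians, dashed lines mark 2-fold, and open points were well above background on 1 array only. Points beyond the dashed lines are Spry2, Fgf8 and the open point Fgf22 on the higher side, and Elk4 and the open point Hs3st3b1 on the lower side.

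EGF receptors feed the same cascade, and their values are given beside those of the FGF circuit without a test. Of 12 measured EGFR family receptors and ligands, the ligand genes Btc and Epgn were 2.50-fold and 2.21-fold higher, none was lower, and the median was 0.18. Egfr and Erbb2 differed by 0.12 and 0.19. The median over the 9 FGF circuit members was 0.11.

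Markers of other cells are given beside the Spry2 increase as summed signals relative to the 75th percentile. In several lists a single bright probe made up most of the sum, which then says little about the other markers. Among these were Kdr (endothelial), Itgam (leukocyte), Trp63 (basal) and Mcidas (ciliated). The 12 mesenchymal markers, 11 of them well above background on both arrays, summed to 145 for Mob1DKO and 158 for WT, with 1 higher and 1 lower. Of 10 endothelial markers 5 were measured, summing to 31.9 and 44.9, with none called, and Cdh5, Tek, Emcn, Cldn5 and Tie1 were not well above background. Of 10 leukocyte markers 6 were measured, summing to 252 and 259, with none called, and Ptprc was not well above background. Alveolar type 2 markers (9 of 9 measured) summed to 3980 and 5648, and alveolar type 1 markers (8 of 9) to 151 and 128, with none called in either list. All 8 goblet markers and 4 of 7 basal markers were at least 2-fold lower, and none in these lists was higher. Goblet markers summed to 135 and 502, and basal markers to 28.8 and 40.8. The median basal difference was −1.13, whereas Trp63 differed by −0.23. Of 6 measured club markers 1 was at least 2-fold lower, none had a difference above 0, the median was −0.72, and they summed to 4221 and 7143. Before scaling, the brightest club probe, Scgb1a1, gave signals of 471920 for Mob1DKO and 449250 for WT. The brightest type 2 probe, Sftpc, gave 485300 and 444600. No spot was flagged as saturated, but whether such bright signals were compressed was not tested, so these sums may overstate the shift. Of 8 ciliated markers none was called, and they summed to 409 and 406. The 5 measured red cell markers were all lower, summing to 1.33 and 14.3. The part of such shifts in the Spry2 difference was not tested.

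**Figure D5:**
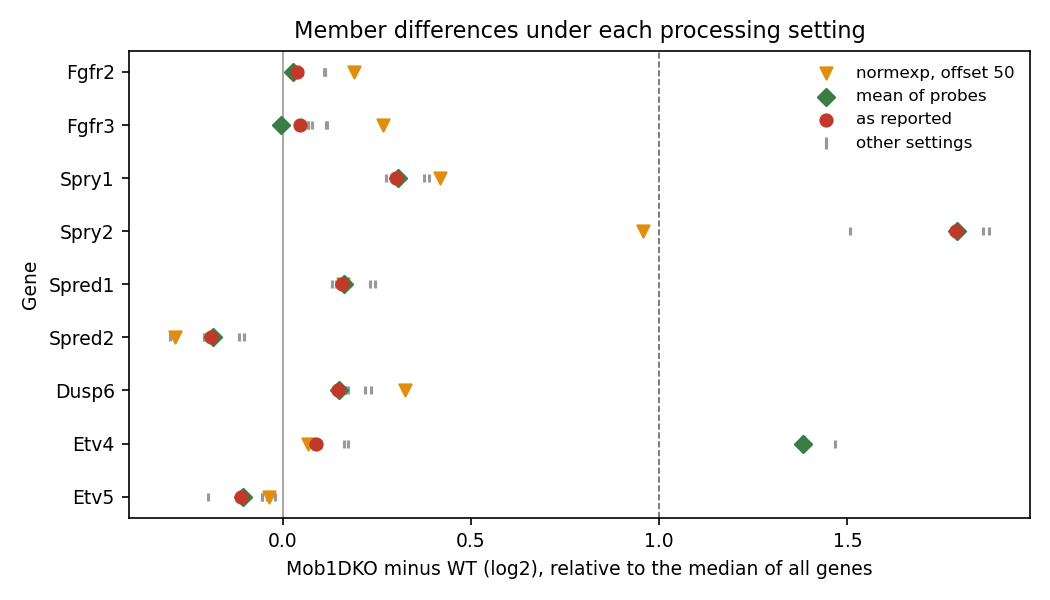
For each measured member, the difference (Mob1DKO minus WT, log2, relative to the median of all genes) is shown as reported (red circle), with normexp and an offset of 50 (orange triangle), with the mean of a gene's probes (green diamond) and under the other settings (grey ticks). The dashed line marks 2-fold. Spry2 stays above the line except at 0.96 under normexp with the offset, and Etv4 lies beyond it where its probes are averaged or their median is taken, values that rest on a probe not well above background for WT, which supports only a bound of 0.48.

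Across 13 other processing settings, the difference of Spry2 relative to the median of all genes lay between 0.96 and 1.88. That of Spry1 lay between 0.27 and 0.42 and that of Dusp6 between 0.15 and 0.33, so on this relative scale both stayed above 0 and under 2-fold in the 13 settings. That of Etv5 lay between −0.20 and −0.02 and that of Spred2 between −0.30 and −0.10. Fgfr2 lay between 0.02 and 0.19, whereas Fgfr3 changed sign, from −0.00 to 0.27. Not all 13 settings could move these values. Median scaling and no scaling shift all genes alike, so on this relative scale they repeat the reported values. For genes with 1 probe, such as Spry1, Spry2 and Dusp6, the floor, filters and probe rules could move only the median of all genes.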

How the data were processed

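Total RNA of 1 Mob1DKO and 1 WT preparation was labelled with Cy3 and hybridised to Agilent arrays, per the labels' protocols. The deposited processed signal is an intensity per spot after background subtraction within the array, from Feature Extraction 10.7.1.1 on an mm9 grid per the file headers, although version 9.5.1.1 stands in the submitters' processing notes. The deposited flag columns are other values used as filters. How the deposited value table of intensity values was scaled is not stated. Both of its columns had a median of 27.3, and its member differences were nearly the same as under quantile scaling. These settings are therefore not separate checks.

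Spots of a probe were averaged, control spots were left out, and each array was scaled to its 75th percentile (291 and 155) over 55681 probes, of which 58.6% and 53.1% were well above background. Scaling removes a 1.88-fold difference in signal. Probes were named by unversioned RefSeq accession (27235 of 55681 probes). A gene's value is that of its brightest probe, leaving out probes that neither array measured well above background. The technical SD is that of single-spot differences over probes printed at 10 spots, by the mean level of both arrays. It was 0.78 below −2, 0.24 from −2 to 0, 0.10 from 0 to 2 and 0.06 above 2. The calling step was tested on simulated data.

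Members, lists and settings were chosen with earlier results of these data known. All probes of members are named; from each further list, called genes (at most 4) and the 2 brightest, of which 1 is not reported here. Settings varied were scaling (median, quantile, loess with span 0.3, none), normexp on the median spot signal (limma 3.58.1; the files used here hold no mean signal), the value table, filters, rules for several probes, outlier spots and a floor of 5.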

Additional observations from a re-analysis of the deposited data

How the results depend on the processing

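Without any scaling between arrays every difference moves up by the same amount, the median of all genes to 0.93 and that of the members to 1.02, and 5 members pass 2-fold. Under normexp with an offset of 50 no member passes 2-fold (0 of 9), and across all genes the calls fall to 99 higher and 173 lower from 572 and 439. With the mean of probes 2 members pass, and likewise 2 with the median of all probes, the added one being Etv4 (1.40). That value takes the second Etv4 probe at its measured difference, where its WT signal supports only a bound, so it is no valid fold. Under the other settings, normexp without offset included, 1 member passed. Several settings could not move the members: the signal floor and both filters left all 9 values as they were, and the rules for several probes could change only genes with more than 1 probe. With probes required to be well above background on both arrays, 174 genes were higher and 198 lower. No paired analysis was possible because each group holds 1 array, and for the same reason no array could be left out. Signal over background limits Spry4, the second Etv4 probe, Fgf10, Fgf22 and Hs3st3b1.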
